A study of Homo sapiens with 6 samples.

Results

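Death receptors and the caspase 8 complex were followed through 10 genes, taken by name from the authors' deposited table: the receptors TNFRSF10A, TNFRSF10B and FAS, the adaptors FADD, TRADD and TRAF2, the kinase RIPK1, the caspases CASP8 and CASP10, and the inhibitor CFLAR. The table listed 56794 named genes in all, and these 10 held 107 of its 203376 transcripts. RNA came from HEK293, a human embryonic kidney line, and every cell in the study carried a luciferase reporter. The parental group had 3 libraries, and the group labelled CASP8AP2 Mutant had 3 libraries from luciferase cells in which the CASP8AP2 gene was deleted with CRISPR. Nothing in the labels says where the deletion lies, whether the mutant cells are 1 clone, or whether replicates were separate cultures, so the deposited p-values measure only the spread between these samples, which may be technical.

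Death receptors are membrane proteins of the tumour necrosis factor receptor family that carry an intracellular death domain. When FAS ligand or TRAIL binds, the receptor gathers FADD, and FADD gathers procaspase 8, procaspase 10 and the inhibitor c-FLIP, the product of CFLAR, in a death-inducing signalling complex where caspase 8 is activated. Tumour necrosis factor works through a different first complex, in which TRADD, TRAF2 and RIPK1 assemble at the receptor and lead to NF-kB signalling, and a later complex with FADD and caspase 8 can form from it. CASP8AP2, also called FLASH, takes its name from reported binding to caspase 8.

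Promoter sequences are shown for the adaptors and the kinase whose levels differed most between the groups in the higher direction. The RIPK1 window precedes RIPK1-201, which did not itself lie higher in the mutant group (1.48 against 1.71). RIPK1-202, the form that did (9.58 against 6.34), starts further downstream, at 3076824, and its window is not shown. Each line gives the 100 bases before the earlier of the RefSeq and GENCODE starts of the transcript named, on the plus strand, from RefSeq's GRCh38.p14, and capitals mark the GC box GGGCGG or its reverse complement, the element bound by SP1.
FADD (FADD-201, chr11:70203063-70203162): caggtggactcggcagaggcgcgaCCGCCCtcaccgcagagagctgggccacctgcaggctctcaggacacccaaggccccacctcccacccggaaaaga
TRAF2 (TRAF2-201, chr9:136886416-136886515): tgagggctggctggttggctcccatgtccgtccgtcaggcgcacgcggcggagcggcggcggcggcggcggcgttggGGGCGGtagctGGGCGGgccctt
RIPK1 (RIPK1-201, chr6:3068278-3068377): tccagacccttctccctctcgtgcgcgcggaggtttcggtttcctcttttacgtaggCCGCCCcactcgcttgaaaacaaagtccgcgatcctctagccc
These windows held 69% G and C in FADD, 78% in TRAF2 and 59% in RIPK1. The FADD and RIPK1 windows each held 1 GC box, and the TRAF2 window held 2. A search of the 100 bases before each RefSeq start, on both strands, found GGGCGG in 7 of 15 starts of the 6 member genes matched by symbol, and in 31.3% of all 35116 starts. TATAAA, the TATA box core, stood before 1 of the 15 (a start of RIPK1 other than the one shown) and before 4.99% of all starts. A match or its absence says only which letters are in the window.

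Values are length-scaled abundances, given by the authors as the mean of each group's 3 libraries plus 1. Here that 1 is taken off, the level of a gene is its transcripts' sum, and a log2 ratio is mutant over parental with 1 added to both sums, which understates the change of low genes. Single libraries are not in the table, so no spread is printed with a group mean. Depth was estimated from the value that 1 read takes in each library, at 13284630 to 57443519 reads per mutant library and 9176834 to 15293014 per parental one. In bulk RNA, fewer cells with a transcript and less of it per cell cannot be told apart. All 8 genes chosen as expressed in HEK293, among them VIM, KRT8, KRT18, CDH2 and GAPDH, were at 1 or more in the parental group. GAPDH is expressed in most cells and marks no cell type. In the mutant 3 of the 8 lay higher and 5 lower, the latter including GAPDH (844 against 1326) and KRT8 (37.3 against 70.6). The neurofilament genes went opposite ways, NEFM at 0.0690 in the mutant against 8.63 and NEFL at 434 against 35.7. Of 14 markers of other cell types, CD3E and HBB had no tested transcript and were listed at 0, and the rest summed to 8.98 in mutant and 6.86 in parental cells, led by COL1A1 at 5.82 and 2.17. CASP8AP2 itself stood at 15.7 against 15.9, which does not check the deletion, as its place in the gene is not known.

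RNA of the main components of the complex was present in both groups. TNFRSF10B, the TRAIL receptor also called DR5, was the most abundant member at 115 in mutant and 89.5 in parental cells, and it made up 63.5% and 63.3% of the summed abundance of the 10 genes. FADD, at 17.2 and 10.2, came next in the mutant group, and CASP8, at 9.44 and 10.6, in the parental group. RIPK1, TRAF2, FAS and CFLAR lay between 5.71 and 11.1. TRADD (2.01 and 1.79) and CASP10 (1.52 and 1.33) were low. TNFRSF10A, the TRAIL receptor also called DR4, was under 1 in both groups. Which neighbours in this order differ beyond their spread was not tested, since only group means were given.

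**Figure D1:**
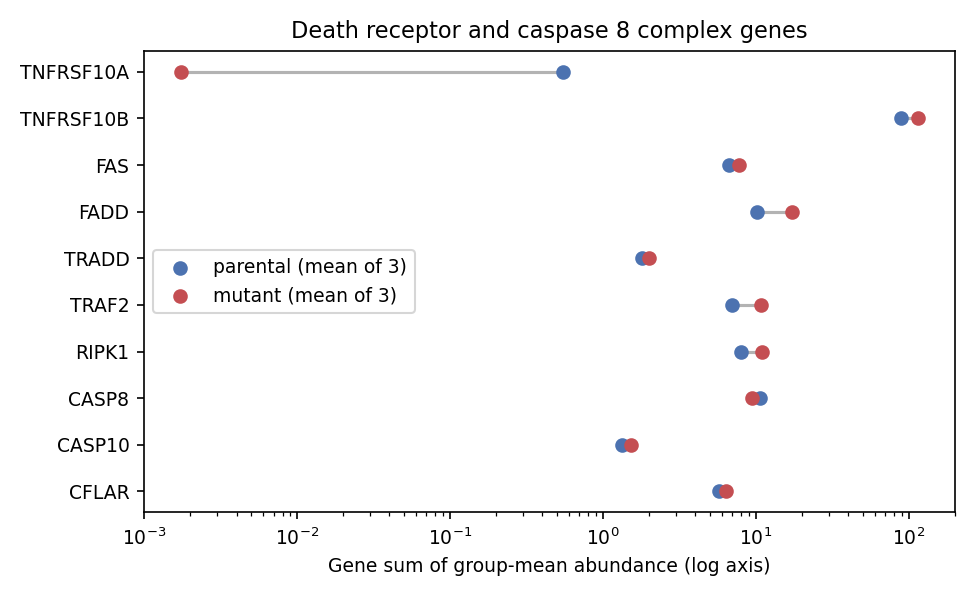
Gene sums of group-mean abundance (log axis) for the 10 genes, with 1 point for the mean of 3 mutant libraries and 1 for the mean of 3 parental libraries, and no error bars because single libraries were not given. TNFRSF10A is the one gene with widely separated points, at 0.00173 and 0.548, and CASP8 is the only other gene with the mutant point on the left.

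No member transcript was called. Of the 107 transcripts 95 were tested by the authors, and 0 reached an adjusted p below 0.05, a level that 0.0221% of all tested transcripts reached in the authors' deposited table. RIPK1-202 was the 1 of the 95 with an unadjusted p below 0.05, which makes 1.05% of them, against 5.79% of all tested transcripts. A mean of at least 1 in either group was held by 18 of the 95, 12 higher and 6 lower in the mutant group. RIPK1-202 was again the 1 of these 18 with a p below 0.05, where 11.8% of all transcripts of that level had one, and after a new adjustment over that level alone 0 of the 18 were called, against 0.0216% of all. How the authors tested could be read from the values: for 2032 of 2032 transcripts of at most 6 reads per library, where log and untransformed values give different p-values, log values with pooled variance gave the deposited p within 0.002, and untransformed values did so for 0. By gene sum 8 of the 10 members lay higher in the mutant group and 2 lower, where 49.4% of the 14856 genes with a sum of at least 1 in either group lay higher. The median log2 ratio of the 10 was 0.16, against -0.01 for those genes. TNFRSF10A is below that sum in both groups, and of the 9 members that reached it 8 lay higher and 1 lower. By the most abundant transcript alone only 5 of the 10 lay higher.

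TNFRSF10A was nearly absent from the mutant libraries. Its gene (ENSG00000104689, minus strand of chromosome 8, 23190452 to 23225126) stood at 0.00173 in mutant and 0.548 in parental cells. The log2 ratio of -0.63 is set by the added amount, and was -2.67 with 0.1 added in place of 1. The mutant value is exactly 1 read in the deepest of the 3 libraries, and 0 reads in the other two. At the parental mean, 146 reads would have been expected in the 3 mutant libraries. The ratio of reads seen to expected was 0.00687, with a 95% Poisson interval of 0.000174 to 0.0383 that covers the counting error of the mutant reads only. The parental value came from 46.7 to 77.9 reads in all, depending on which libraries held them. The authors' deposited table gives its main transcript, TNFRSF10A-201, a p of 0.0963 and an adjusted p of 0.703, so the difference was not called.

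The parental libraries differed among themselves in TNFRSF10A. Bounds follow from the mean and p-value of TNFRSF10A-201 in the authors' deposited table and the single mutant read, under the test of log values described above. The lowest parental library then lay between 0.0309 and 0.222, the middle one between 0.222 and 0.709 and the highest between 0.741 and 1.04. Under that test the highest was at least 4.68 times the lowest, and all 3 lay above the mutant libraries, the highest of which is 3 times the mutant mean. The test was checked only on transcripts of at most 6 reads per library, and TNFRSF10A had at least 46.7 parental reads in all. The counting error of these reads is not in the bounds. Which labelled replicate each of these is cannot be read from the table. RNAs that overlap the gene on the other strand were listed at 0 in the mutant group as well, TNFRSF10A-AS1 against 0.159 and AC100861.1 against 0.283. The authors' deposited table lists p 0.374 for TNFRSF10A-AS1-201, the value that reads in 1 library alone give. No source used here says that counting used strand, so reads of a gene and of its antisense partner cannot be told apart.

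TNFRSF10A is 1 of 4 TRAIL receptor genes that lie side by side on chromosome 8, and the 4 did not share a direction. TNFRSF10B, at the other end of the array, lay higher in the mutant group (log2 ratio 0.36). TNFRSF10D, a decoy receptor with a truncated death domain, stood at 10.2 against 28.2, a log2 ratio of -1.38, and the authors' deposited table gives its only transcript a p of 0.0337. TNFRSF10C, a decoy anchored to the membrane by a lipid, was at 0.222 and 0.261. The abundance of TNFRSF10B over that of TNFRSF10D was 11.3 in mutant and 3.18 in parental cells. Beyond the array, CHMP7, of the ESCRT-III membrane machinery, stood at 11.3 against 15.0 (p 0.00460 for CHMP7-203 by the authors' deposited table). By the same table RHOBTB2 was at 1.95 against 2.06 (p 0.449 for RHOBTB2-206). R3HCC1 was at 12.8 against 14.3 (p 0.397 for R3HCC1-201) and LOXL2 at 3.64 against 3.87 (p 0.830 for LOXL2-201), also by that table. Of all genes with a sum of at least 1 in either group, 49.4% lay higher in the mutant group. ENTPD4 lay higher, at 17.6 against 12.0 (p 0.394 for ENTPD4-202 by the authors' deposited table). The 4 receptor genes are close in sequence, and reads that match several of them may have been split between them.

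CFLAR, CASP10 and CASP8 form another array, on the plus strand of chromosome 2 from 201116104 to 201287711, and their levels were close between groups. The log2 ratio was 0.13 for CFLAR, 0.11 for CASP10 and -0.16 for CASP8. Around them NDUFB3, a subunit of respiratory complex I, stood at 29.4 against 50.1, and the authors' deposited table lists p 0.00147 for NDUFB3-201. ORC2, of the origin recognition complex, stood at 10.4 against 13.4 (p 0.0289 for ORC2-201 by the authors' deposited table). Both lay lower in the mutant group, and FAM126B, between them, was at 2.23 and 2.25. On the CASP8 side TRAK2 was at 3.10 against 3.91 and STRADB at 14.5 against 17.5. The authors' deposited table lists p 0.109 for TRAK2-201 and 0.946 for STRADB-202, so neither was under 0.05.

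**Figure D2:**
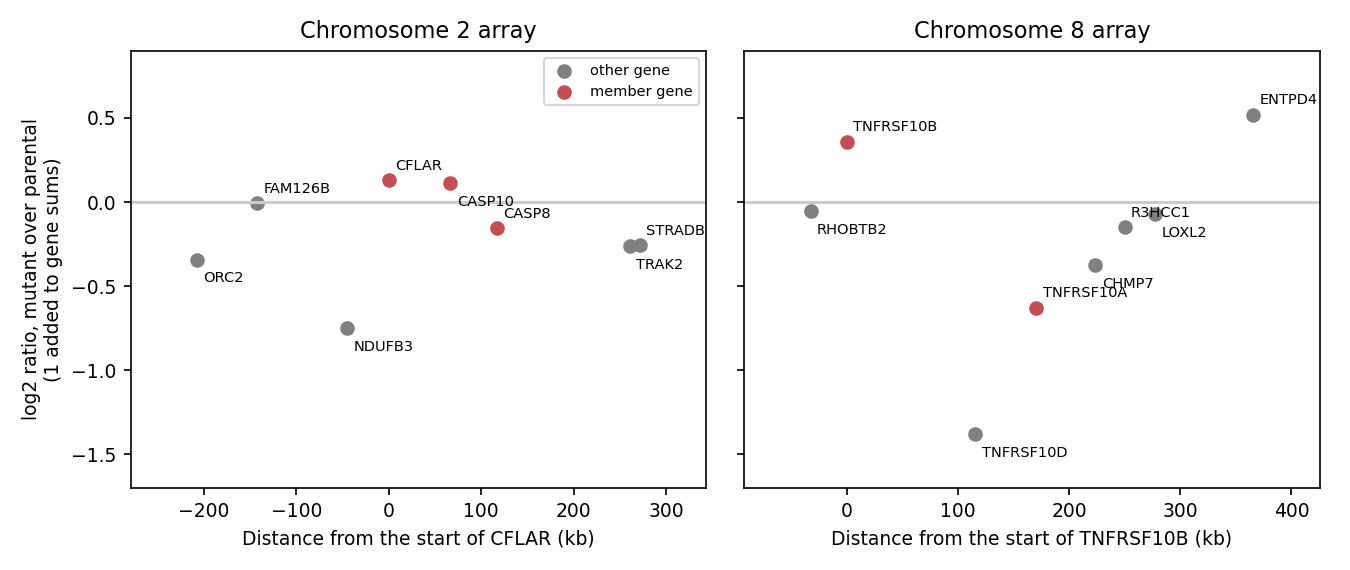
Log2 ratio of mutant over parental gene sums (1 added) for protein-coding genes with a sum of at least 0.5 in either group, against distance in kb from the start of CFLAR (left) and of TNFRSF10B (right), within 200 kb of each array, with members in red. On chromosome 8 TNFRSF10B lies at 0.36 while TNFRSF10D and TNFRSF10A lie at -1.38 and -0.63 (-2.67 for TNFRSF10A with 0.1 added); on chromosome 2 the 3 members lie between -0.16 and 0.13.

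TNFRSF10B RNA was split between coding and retained-intron transcripts, and a difference between these classes was not tested. The coding RNAs stood at 53.4 in mutant and 33.1 in parental cells, a log2 ratio of 0.67. TNFRSF10B-201, which encodes the form of 440 residues, was at 48.3 against 31.3, and TNFRSF10B-202, which encodes 411 residues, at 5.16 against 1.85. The authors' deposited table lists p 0.4499 for the first and 0.324 for the second, so neither was under 0.05. The most abundant transcript, TNFRSF10B-208, is annotated as a retained intron and was at 53.8 against 51.4 (p 0.684 in the authors' deposited table). Retained-intron RNAs made up 53.0% of the gene's abundance in mutant and 62.6% in parental cells. Of this class TNFRSF10B-203 was at 3.03 against 2.31 and TNFRSF10B-206 at 3.51 against 1.84, with p 0.255 and 0.0741 by the authors' deposited table. TNFRSF10B-208 lies within the last part of the gene, so its share rests on how reads common to both forms were assigned.

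FAS, the receptor of FAS ligand (chromosome 10, 88990582 to 89015785), stood at 7.78 in mutant and 6.67 in parental cells. Its main coding transcript, FAS-204, encodes the receptor of 335 residues and was at 3.33 against 3.44 (p 0.836 in the authors' deposited table). FAS-205, of 314 residues, has the length of the soluble receptor made when the exon of the membrane span is skipped, and was at 0.366 against 0.187 (p 0.234 in the authors' deposited table). FAS transcripts without a coding part summed to 2.20 against 2.19. Among them FAS-219 stood at 1.48 against 1.00 and FAS-207, in the other direction, at 0.305 against 0.906. The authors' deposited table lists p 0.361 and 0.382 for these. Neither the coding nor the non-coding transcripts of FAS held a p under 0.05. The gene sum lay higher in the mutant group and the most abundant transcript alone did not (log2 ratio -0.04).

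**Figure D3:**
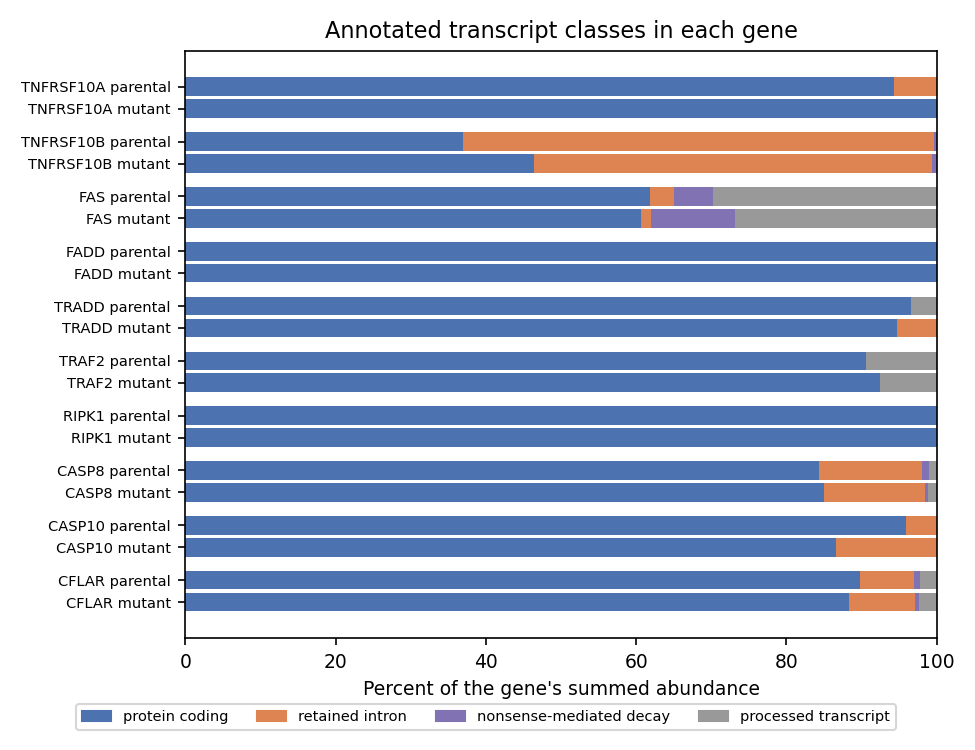
Share of each gene's summed abundance (percent, 0 to 100) by annotated transcript class, with 1 bar for the mutant and 1 for the parental group means. Retained-intron RNA takes more than any other class in TNFRSF10B alone, 53.0% in mutant and 62.6% in parental cells; the TNFRSF10A mutant bar rests on 1 read.

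FADD, the adaptor that links death receptors to procaspase 8, had the largest log2 ratio of the 10 in the higher direction. It has 1 transcript in the table, FADD-201 (ENSG00000168040, chromosome 11, 70203163 to 70207390), at 17.2 in mutant and 10.2 in parental cells, a log2 ratio of 0.70. The authors' deposited table gives FADD-201 a p of 0.0753 and an adjusted p of 0.703. That p-value corresponds to a standard error near 0.29 on the log2 scale and a 95% interval of about -0.11 to 1.51, an approximation that takes the log of a group mean for the mean of its logs. The interval reaches below 0, and the p-value was not under 0.05. Of genes with a sum of at least 1, 94.9% had a lower log2 ratio than FADD. The abundance of FADD was 1.82 times that of CASP8 in the mutant and 0.958 times in the parental group.

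TRAF2, an adaptor that brings the ubiquitin ligases BIRC2 and BIRC3 to the receptor, stood at 10.7 against 6.997 (chromosome 9, 136881912 to 136926607), a log2 ratio of 0.55. Its main transcript TRAF2-201 was at 9.83 against 6.23, and the authors' deposited table lists its p as 0.0520. The approximate standard error of its log2 ratio of 0.58 was 0.21, and the 95% interval ran from about -0.01 to 1.17. TRADD, the death-domain adaptor of tumour necrosis factor receptor 1, was at 2.01 against 1.79 (chromosome 16). Its transcripts went opposite ways: TRADD-201, of 312 residues, was at 0.811 against 1.29 and TRADD-202, of 252 residues, at 1.10 against 0.433, with p 0.376 and 0.209 by the authors' deposited table. The direction of TRADD is not settled: its log2 ratio of 0.11 became -0.16 relative to genes of like GC content and -0.34 by the most abundant transcript.

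RIPK1, the kinase that decides between survival signalling and death at these receptors, held the single unadjusted p under 0.05. Summed over transcripts it was at 11.1 in mutant and 8.05 in parental cells (ENSG00000137275, chromosome 6, 3063991 to 3115187), a log2 ratio of 0.41. RIPK1-202 stood at 9.58 against 6.34, and the authors' deposited table gives it a p of 0.00406 and an adjusted p of 0.464. The approximate standard error of its log2 ratio of 0.53 was 0.09, with a 95% interval of about 0.28 to 0.77, unadjusted for the other transcripts tested. RIPK1-201 encodes the same 671 residues and was at 1.48 against 1.71 (p 0.649 in the authors' deposited table). The 2 forms differ at the 5′ end: RIPK1-201 starts at 3068424, just downstream of the promoter window shown above, and RIPK1-202 starts at 3076824. RIPK1-202 made up 86.6% of RIPK1 abundance in mutant and 78.8% in parental cells, and because the forms share most of their length this split rests on how reads were assigned. RIPK1-203, a non-coding form, was near 0 in both groups.

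CASP8, the initiator caspase (ENSG00000064012, chromosome 2, 201233443 to 201287711), was the only member above an abundance of 1 that lay lower in the mutant group, at 9.44 against 10.6. CASP8-205, which encodes 538 residues, was at 3.22 against 3.30 and CASP8-203, of 464 residues, at 2.59 against 3.52, with p 0.746 and 0.657 by the authors' deposited table. A retained-intron form, CASP8-204, was at 0.950 against 1.19. No CASP8 transcript of the 19 tested had a p under 0.05. CASP10, a second initiator caspase, was at 1.52 against 1.33 over 12 tested transcripts, led by CASP10-205, of 273 residues, at 0.442 against 0.528. CASP8 was 6.21 times as abundant as CASP10 in the mutant and 8.01 times in the parental group.

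CFLAR, which encodes c-FLIP, a relative of caspase 8 without protease activity that competes for FADD, was at 6.34 against 5.71. Its long form of 480 residues, from CFLAR-201 and CFLAR-208, summed to 2.02 in mutant and 1.74 in parental cells, and the short form of 221 residues, from CFLAR-203 and CFLAR-212, to 1.07 and 1.23. The long over the short form was 1.89 in mutant and 1.41 in parental cells, and by the authors' deposited table p lay between 0.457 and 0.948 for the 4 transcripts. CFLAR-201 was the most abundant, at 1.81 against 1.56, and CFLAR-215, of 462 residues, followed at 1.31 against 1.03. CASP8 was 1.49 times as abundant as CFLAR in the mutant and 1.86 times in the parental group.

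The genes around the complex were read from lists of its ligands, other receptors, ubiquitin and kinase partners, adaptors and substrates. Each list gene was read by its most abundant transcript, whose p was below 0.05 for 13.8% of the 14856 genes, 5.27% higher and 8.53% lower in the mutant group. Among the 9 members with a sum of at least 1 this held for RIPK1 alone. These p-values, and those of neighbouring genes, are unadjusted. Death ligands were near 0: TNF, LTA, TNFSF10 (TRAIL), TNFSF15 and TNFSF12 summed to 0.573 in mutant and 0.625 in parental cells, and FASLG had no tested transcript and was listed at 0. The 2 highest were LTA (0.299 against 0.349) and TNF (0.189 against 0.140). None of the 6 ligands passed an abundance of 1.

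Of 11 other receptors 6 passed an abundance of 1, 1 higher and 5 lower in the mutant group, and their median log2 ratio was -0.11. TNFRSF10D, described above, was the only one with a p under 0.05. TNFRSF1A, the main receptor of tumour necrosis factor, was at 16.3 against 17.7. Of 26 ubiquitin and kinase genes of the receptor complex 23 passed, 16 higher and 7 lower, and their median log2 ratio was 0.15, and 2 had a p under 0.05, both in the higher direction. SPATA2, which links the deubiquitinase CYLD to the complex, stood at 5.63 against 3.19 (p 0.00281 for SPATA2-201 in the authors' deposited table). TRAF3, an adaptor related to TRAF2, stood at 13.6 against 7.53 (p 0.0171 for TRAF3-208 in the authors' deposited table).

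Necroptosis, the death route that RIPK1 starts when caspase 8 is inactive, could hardly be read. RIPK3 had no tested transcript and was listed at 0, and MLKL, the membrane executor, was at 0.0131 while listed at 0 in the parental group. ZBP1 was listed at 0 in the mutant group against 0.0141. TICAM1, the adaptor of toll-like receptor 3, was at 7.55 against 3.99 (p 0.0316 for TICAM1-201 in the authors' deposited table).

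The list of death effector and death domain adaptors also holds other regulators of death, among them FAIM, and CASP8AP2 itself. Of its 14 genes 13 passed, 4 higher and 9 lower (CASP8AP2 among these, at a log2 ratio of -0.01), and their median log2 ratio was -0.06. FAIM, an inhibitor of FAS-induced death, stood at 15.7 against 23.3 (p 0.0134 for FAIM-204 in the authors' deposited table) and was the only one with a p under 0.05. The 7 substrates and effectors of caspase 8 all passed, 3 higher and 4 lower, with a median of -0.13 and none with a p under 0.05. The most abundant of them were PARP1, a DNA repair enzyme that caspases cleave, at 106 against 151, and DFFA, the inhibitor of the caspase-activated nuclease, at 32.3 against 38.7. Each of these lists was made with earlier results of these data known.

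**Figure D4:**
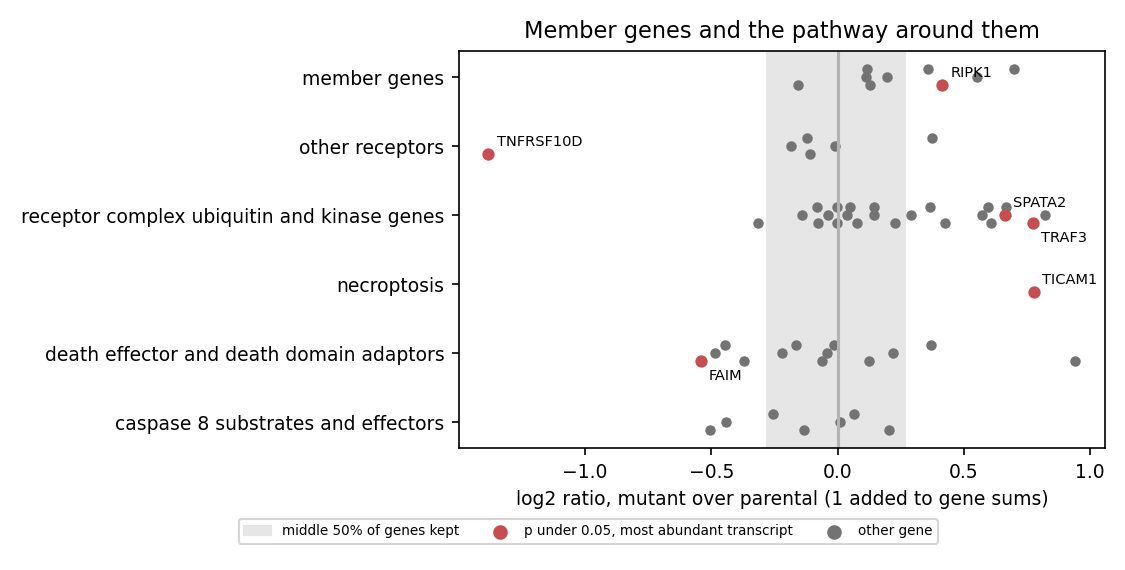
Log2 ratio of mutant over parental gene sums (1 added) for the 9 members and the pathway genes with a sum of at least 1 in either group, with 1 point for a gene, red where its most abundant transcript has a deposited p under 0.05, and a grey band for the middle 50% of all such genes. RIPK1 is the red member at 0.41, and TNFRSF10D lies farthest from 0 at -1.38.

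GC content moved with the log2 ratio across all genes and touches the members that lay highest. Genes with 26.7% to 37.0% GC in their main transcript had a median log2 ratio of -0.14, and genes with 64.3% to 75.6% GC one of 0.26. FADD has 58.6% GC and TRAF2 61.3%, and relative to genes of like GC content their log2 ratios were 0.55 and 0.35 in place of 0.70 and 0.55. RIPK1 has 47.6% and went from 0.41 to 0.45, and FAS, with 39.1%, from 0.19 to 0.36. The part of GC content in these differences was not tested further.

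**Figure D5:**
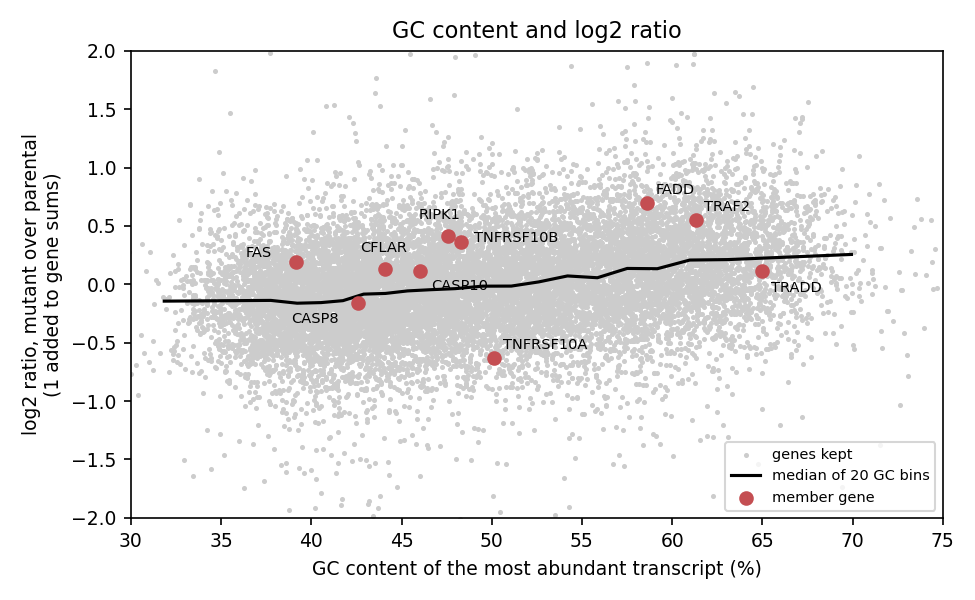
Log2 ratio of mutant over parental gene sums (1 added) against the GC content (percent) of each gene's most abundant transcript, for genes with a sum of at least 1 in either group (grey), the medians of 20 bins (line) and the 10 members (red); genes outside the axes are not drawn. FADD and TRAF2 lie above the line at 58.6% and 61.3% GC, and TRADD lies below it at 65.0%.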

How the data were processed

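RNA sequencing of 3 mutant and 3 parental libraries was read from 1 table of group values. The submitters' processing notes name bcl2fastq, STAR, Partek and build hg38. No source used here gives their versions or the annotation. Deposited group means (least-squares means per the file headers, of a scaled abundance plus 1), p-values and step-up adjusted p-values are held as scores, since a question mark stands for each untested transcript. The deposited ratio and fold change scores entered no result. The deposited signal named total counts, which is not whole, served only for genes without a tested transcript, whose total of 6, the added 1 of each library, is given as listed at 0.

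Lengths, classes and positions came from GENCODE 29, where 98.98% of transcript names were found. The value of 1 read in a library is the step that abundance times length takes in transcripts seen in 1 group only, and depth is the group's summed abundance times length over it, taking the libraries of a group to have equal sums. Gene sums, log2 ratios with 1 added, GC medians over the 501 genes nearest in GC content and motif searches used Python 3.11.15, pandas 2.3.3 and scipy 1.17.1, and sums, GC medians and read decoding were tested on simulated data. Approximate errors divide the log2 ratio by the t value (4 degrees of freedom) of the deposited p. Named were all members, with their most abundant transcripts and those with a mean of at least 1 or a p under 0.05, and list genes with a p under 0.05, at most 5 a list, or else the 2 most abundant. Other genes and transcripts named (neighbours, markers, TNFRSF1A, MLKL, ZBP1, FAS-205, FAS-207, RIPK1-203 and the CFLAR forms) were chosen after their values were seen. Members and lists were chosen with earlier results of these data known. No test over single libraries was possible, as only group means were used. Alternatives were another added amount, other filters, transcript classes and references, and another adjustment. Intervals on reads cover counting error only.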

Additional observations from a re-analysis of the deposited data

How the results depend on the processing

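No paired analysis was possible because the table holds group means, and for the same reason no library could be left out and no other count tool run. The number of members higher in the mutant group, 8, was 5 by the most abundant transcript alone, 7 relative to genes of like GC content, and 8 under the other 5 settings. Of 70 single-gene log2 ratios recomputed 66 kept their sign. The 4 others were FAS (-0.04), TRADD (-0.34) and CASP10 (-0.08) by the most abundant transcript, and TRADD (-0.16) relative to genes of like GC content; the cause was not tested. TNFRSF10B, at 0.36, was 0.06 by the most abundant transcript, 0.67 on coding transcripts and 0.68 without retained introns, an alternative chosen after seeing the data. TNFRSF10A went from -0.63 to -2.67 with 0.1 added in place of 1. CASP8 went from -0.16 to -0.03 by the most abundant transcript. The count of called member transcripts was 0 at an adjusted p under 0.01 and when adjusted over transcripts with a mean of at least 1, where 1 still had an unadjusted p under 0.05. The necroptosis list has 1 gene above an abundance of 1, so its median of 0.78 became 0.0188 with no filter, over 3 genes, and 0.90 with 0.1 added; the medians of all 5 lists kept their sign under these settings. TNFRSF10A is limited by depth, with 1 read in the mutant group.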

Other observations

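RNAs annotated on the opposite strand of member genes did not follow 1 direction. AP000879.1, opposite FADD, stood at 1.47 in mutant and 0.833 in parental cells, and AL031963.3, opposite RIPK1, at 0.365 and 0.984. AC107959.2, opposite TNFRSF10B, was at 0.136 and 0.380, and CFLAR-AS1 at 0.0594 and 0.2001. Also opposite CFLAR, the pseudogenes IMPDH1P10 (0.388 and 0.115) and AC007283.2 (0.139 and 0.0895) lay higher in the mutant group. ACTA2, the smooth muscle actin gene that overlaps FAS, was far above FAS at 26.1 and 35.3. FBXL8, which overlaps TRADD, was at 2.99 and 2.85, above TRADD itself. AC007283.1, on the same strand as CFLAR near its 3′ end, stood at 0.0868 and 0.596.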
